A study of Homo sapiens with 4 samples.

Results

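The subject here is the set of transcripts made from the human mitochondrial genome, taken as every row of the count table whose gene name begins with MT-. The rule found 37 of 56809 gene rows, made up of 13 protein-coding genes, 2 rRNA genes and 22 tRNA genes. Of these, the 13 mRNAs and the 2 rRNAs had counts, and all 22 tRNA rows were at 0 in all 4 libraries. The libraries came from NCI-H929, an established human multiple myeloma line (labelled B lymphocyte), whose cells all expressed Cas9, a nuclease guided to DNA by RNA. A doxycycline-inducible construct that knocks out BCL7A (KO) was in the cells of 2 libraries. The other 2 came from control cells, which the protocol gives a control construct and the titles call wild type. Both groups had 3 days of puromycin selection and then 0.5 ug/ml doxycycline for 24 h before RNA was isolated for poly(A)-selected, strand-specific sequencing. BCL7A belongs to the SWI/SNF (BAF) family of chromatin remodellers. The labels name no separate cultures or single clones for replicate libraries, so p-values cover only library-to-library spread, which may be technical.

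The mitochondrial genome is a small circular DNA present in many copies per cell. Both of its strands are transcribed into long precursor RNAs, in which tRNAs sit between most of the rRNAs and mRNAs. The tRNAs are cut out by nuclear-encoded enzymes, which frees the RNAs that lie between them, and most of the mRNAs then receive a short poly(A) tail. The mRNAs encode core subunits of complexes I, III and IV of the respiratory chain and of ATP synthase (complex V), and all other subunits of these complexes come from nuclear genes. Plasma cells and myeloma cells secrete large amounts of antibody and use this machinery for part of their ATP.

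Each KO library held 38671744 or 40799624 gene counts and each control library 17567202 or 20153596, so the KO group was the deeper one. BCL7A itself had 46 and 44 counts in the KO libraries and 830 and 1014 counts in the control libraries, a log2 fold change of -5.15 (SE 0.11, adjusted p = 3.16e-25). All 8 plasma cell markers checked had counts in every library, and they summed to 11621 to 11637 CPM (counts scaled by library total and TMM factors) in the KO libraries and 6560 to 6611 CPM in the control libraries. The 6 mature B cell markers, which include CD79A and CD74, summed to 1.85 and 2.54 CPM in the KO libraries and to 369 and 378 CPM in the control libraries, with CD22 at 0 in both KO libraries. Marker sums for T cells were 13.9 to 14.0 and 24.3 to 24.9 CPM in the KO and control libraries (CD3D at 0 in all), for myeloid cells 0.703 to 0.939 and 1.19 to 1.53 CPM (CSF1R at 0 in both control libraries), and for fibroblasts 0.324 to 0.398 and 10.6 to 10.9 CPM (COL1A2 and COL3A1 at 0 in both KO libraries). The KO and control cells therefore differed in marker genes and in depth as well as in BCL7A, and the part of these differences in the mitochondrial values was not tested. Both groups are labelled as NCI-H929, and whether their cells are of 1 line with 1 mitochondrial sequence was not tested. That limit applies to all differences between KO and control cells given here. Fewer mitochondrial genomes per cell and less RNA from each cannot be told apart in such bulk RNA.

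Mitochondrial transcripts were among the most abundant in every library. MT-CO1, the core subunit of cytochrome c oxidase, was the gene with the highest count in all 4 libraries. Of the 10 genes with the most counts, 6 were mitochondrial in each KO library and 8 in each control library. The 13 mRNAs together took 6.86% and 6.88% of gene counts in the KO libraries, against 7.43% and 7.36% in the control libraries. The 2 rRNAs took 0.550% and 0.536% in the KO libraries, against 0.760% in both control libraries. The groups did not overlap for either class, and an exact two-sided permutation test of 2 against 2 libraries cannot go below p = 0.333, the value both classes gave. Wilson 95% intervals of the mRNA share, which cover counting error only, ran from 6.85% to 6.87% in KO replicate 1 and from 7.42% to 7.45% in control replicate 1. Within each group the proportions of the 15 rows to one another differed by more than counting error. The chi-square per degree of freedom was 26.4 between the KO libraries and 18.8 between the control libraries. It does not measure the spread of the mRNA share.

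**Figure D1:**
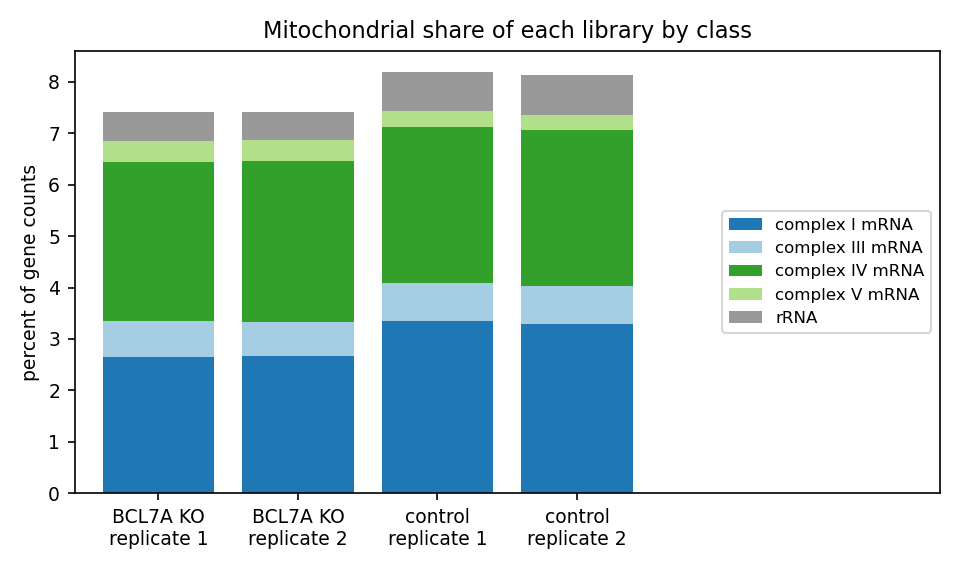
Stacked bars give the percent of all gene counts (vertical axis) taken by mitochondrial mRNAs of complexes I, III, IV and V and by the 2 rRNAs in each library. The KO bars reach 7.41% in both libraries and the control bars 8.19% and 8.12%, and the lowest segment, complex I, is the one that differs most.

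The direction of the summed mRNA level depended on the scaling. TMM factors, which scale libraries, rest on the assumption that most genes do not differ. Whether it holds here was not tested, and 76.2% of tested genes passed the threshold given below with these factors. The factors were 0.909 and 0.906 in the KO libraries and 1.10 in both control libraries. After that scaling the 13 mRNAs summed to 75646 CPM in the KO group, against 67160 CPM in the control group, the opposite order to their raw shares. Leaving the factors out moved log2 fold changes by a median of -0.28 over the tested genes. What did not depend on the scaling was how the members differed from one another. Results are therefore given with TMM factors and also relative to the mitochondrial mRNA pool, that is, with each library scaled to the summed counts of its 13 mRNAs.

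With TMM factors all 15 detected members differed between the groups (edgeR quasi-likelihood test, Benjamini-Hochberg adjusted p below 0.05), with KO values above control for 10 and below for 5. Of 17885 tested genes, 76.2% passed the same threshold, 36.4% higher and 39.8% lower. With so large a background, a call by itself separates no gene from the rest. How many of all tested genes had groups without overlap was not counted. A lack of overlap given for a member therefore does not set it apart either. The median log2 fold change was 0.22 over the 15 members and -0.06 over all tested genes. Without factors, 4 members were higher and 8 lower, where 77.3% of all tested genes passed, 25.2% higher and 52.2% lower. Relative to the mitochondrial mRNA pool, 7 were higher and 5 lower, where 76.5% of all tested genes passed, 29.4% higher and 47.1% lower.

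Levels per kilobase of annotated gene length ranged widely, although the genes on each strand share precursors. The highest mRNA, MT-CO1, was 13658 ± 136 CPM per kilobase in the KO libraries and 10653 ± 43.2 in the control libraries (mean ± SD, n = 2 each, as for all such values here). The lowest, MT-ND6, was 347 ± 17.6 CPM per kilobase in the KO libraries and 198 ± 2.25 in the control libraries. The highest mRNA was thus 39.4 times the lowest in the KO libraries and 53.8 times the lowest in the control libraries. The first 5 places, MT-CO1, MT-CO2, MT-ND4, MT-CO3 and MT-CYB, and the last 3, MT-ND3, MT-RNR1 and MT-ND6, were in the same order in both groups. Between them, MT-ND1 and MT-ND2 held places 8 and 9 in the KO libraries and places 6 and 7 in the control libraries. MT-ATP6 went the other way, with place 7 in the KO libraries and place 10 in the control libraries, and so did MT-ATP8, with places 10 and 12. Neighbours in these orders did not overlap between libraries of a group, except MT-CYB and MT-ND1 in the control libraries.

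**Figure D2:**
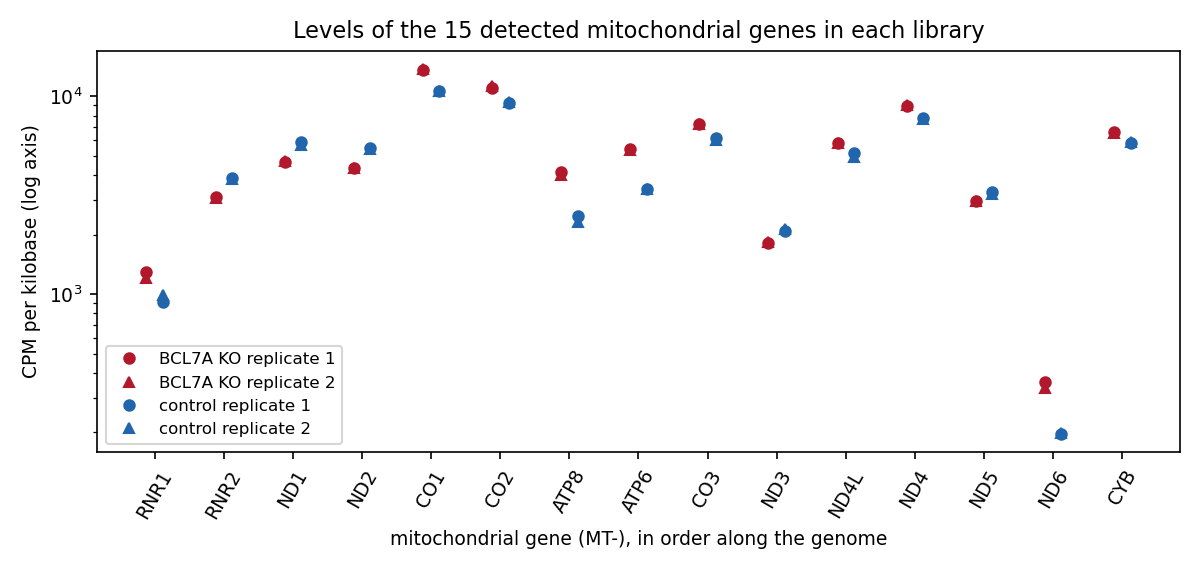
Points give the level of each detected mitochondrial gene in each library, in CPM per kilobase on a log axis, with genes in order along the genome, KO libraries in red and control libraries in blue. MT-CO1 is highest and MT-ND6 lowest in both groups, and for MT-RNR2, MT-ND1, MT-ND2, MT-ND3 and MT-ND5 the KO points lie below the control points.

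The genes of ATP synthase stood highest in the KO libraries relative to control, apart from MT-ND6. MT-ATP6 encodes subunit a, which forms part of the proton path, and MT-ATP8 encodes a small membrane subunit beside it. MT-ATP6 (chromosome M, 8527 to 9207, plus strand, GRCh38) had 3688 and 3648 CPM in the KO libraries, against 2313 and 2304 CPM in the control libraries. Its log2 fold change was 0.67 (SE 0.02, adjusted p = 1.10e-21), and 0.50 relative to the mitochondrial mRNA pool (SE 0.02, adjusted p = 3.71e-17). MT-ATP8 (8366 to 8572) had 858 and 828 CPM in the KO libraries, against 514 and 479 CPM in the control libraries. Its log2 fold change was 0.76 (SE 0.03, adjusted p = 4.33e-15), and 0.59 relative to the pool (SE 0.03, adjusted p = 6.58e-14). For both genes the groups did not overlap and the direction was the same without factors (0.39 and 0.49). Together they made up 6.03% and 5.90% of mitochondrial mRNA counts in the KO libraries, against 4.19% and 4.17% in the control libraries.

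These genes lie on one bicistronic mRNA and share 46 bases, so reads from the overlap cannot be assigned to one of them. The junction is shown because the values of both genes rest on it (chrM:8507-8592, plus strand, GRCh38, from the GENCODE 29 transcript sequences). Capitals mark the bases that belong to both genes, from the start codon of MT-ATP6 to the stop codon of MT-ATP8.
MT-ATP8/MT-ATP6: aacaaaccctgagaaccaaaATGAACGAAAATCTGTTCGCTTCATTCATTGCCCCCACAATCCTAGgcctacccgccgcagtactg
MT-ATP8 counts were 23.3% and 22.7% of MT-ATP6 counts in the KO libraries and 22.2% and 20.8% in the control libraries. That ratio differed far less (0.10 on the log2 scale) than either gene did. Another overlapping pair, MT-ND4L and MT-ND4, shares 7 bases (chrM:10740-10786, plus strand), again in capitals.
MT-ND4L/MT-ND4: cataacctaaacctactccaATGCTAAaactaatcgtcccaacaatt
MT-ND4L counts were 13.9% and 13.8% of MT-ND4 counts in the KO libraries and 14.3% and 13.9% in the control libraries, and the groups overlapped once unrounded values were compared. MT-CO3 follows MT-ATP6 with no tRNA between them, and base 9207 belongs to both, yet their ratio differed. MT-ATP6 counts were 64.9% and 64.3% of MT-CO3 counts in the KO libraries, against 47.9% and 48.6% in the control libraries, a log2 difference of 0.42.

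Complex I, the NADH dehydrogenase, has 7 of its core subunits encoded here, and they split by gene. MT-ND1 (3307 to 4262) had 4435 and 4499 CPM in the KO libraries, against 5625 and 5454 CPM in the control libraries, a log2 fold change of -0.31 (SE 0.02, adjusted p = 6.06e-14). MT-ND2 (4470 to 5511) had 4532 and 4539 CPM in the KO libraries, against 5694 and 5644 CPM in the control libraries, a log2 fold change of -0.32 (SE 0.02, adjusted p = 7.89e-15). Relative to the pool both were lower still, at -0.48 and -0.49. MT-ND3 was 627 and 633 CPM in the KO libraries and 722 and 739 CPM in the control libraries, a log2 fold change of -0.21 (SE 0.02, and -0.39 relative to the pool). MT-ND5, a proton-pumping subunit, was 5379 and 5386 CPM in the KO libraries and 5979 and 5815 CPM in the control libraries, a log2 fold change of -0.13 (SE 0.02, and -0.30 relative to the pool). These 4 were lower in the KO libraries also without factors. Each passed the threshold under all 3 scalings. With no filter on low counts MT-ND5 no longer passed (log2 fold change -0.05, adjusted p = 0.0591).

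MT-ND4 and MT-ND4L, which also encode membrane subunits of complex I, were near the middle of the pool. MT-ND4 was 12347 and 12441 CPM in the KO libraries and 10769 and 10552 CPM in the control libraries, a log2 fold change of 0.22 (SE 0.02). Relative to the pool its difference was 0.05 (SE 0.02, adjusted p = 0.0310), and without factors it was -0.06. MT-ND4L was 1721 and 1718 CPM in the KO libraries and 1543 and 1465 CPM in the control libraries, a log2 fold change of 0.19 (SE 0.02). It did not pass relative to the pool (0.02, SE 0.02, adjusted p = 0.403), and without factors it was lower (-0.09). The 7 complex I mRNAs together made up 38.7% of mitochondrial mRNA counts in both KO libraries, against 45.1% and 44.6% in the control libraries.

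MT-ND6 had the highest log2 fold change of the 15 members under all 3 scalings, and it is the one mRNA encoded on the minus strand (14149 to 14673). It encodes a membrane subunit of complex I. It had 188 and 175 CPM in the KO libraries, against 103 and 105 CPM in the control libraries, a log2 fold change of 0.81 (SE 0.04, adjusted p = 6.68e-17). Relative to the pool its log2 fold change was 0.64 (SE 0.04, adjusted p = 8.72e-13), and without factors it was 0.53. MT-ND6 counts were 0.250% and 0.232% of the counts of the other 12 mRNAs in the KO libraries, against 0.153% and 0.157% in the control libraries. The groups did not overlap, and the log2 difference of this ratio was 0.64 (exact two-sided permutation p = 0.333, the smallest that 2 against 2 allows). MT-ND5 and MT-CYB, which flank MT-ND6 on the plus strand, moved differently. MT-ND6 counts were 3.50% and 3.26% of MT-ND5 counts in the KO libraries, against 1.72% and 1.80% in the control libraries. The sources used here do not give the strand setting of the counting, so reads of MT-ND6 and of the plus-strand precursor opposite it may not be told apart. The libraries were poly(A)-selected, and whether MT-ND6 RNA was captured as well as the other mRNAs was not tested. Its counts, and its ratio to the other 12 mRNAs, may therefore not measure its amount in the cell.

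The genes of complexes III and IV differed less relative to the pool, of which they are a large part, than with TMM factors. The complex IV mRNAs together made up 45.2% and 45.6% of mitochondrial mRNA counts in the KO libraries, against 40.9% and 41.2% in the control libraries. MT-CO1 (5904 to 7445) had 20913 and 21209 CPM in the KO libraries, against 16473 and 16379 CPM in the control libraries, a log2 fold change of 0.36 (SE 0.02, adjusted p = 8.15e-17). Relative to the pool it was 0.19 higher (SE 0.02, adjusted p = 1.01e-09), with the counts of its nuclear copy not included. MT-CO2, which carries the site that takes electrons from cytochrome c, was 7528 and 7690 CPM in the KO libraries and 6302 and 6388 CPM in the control libraries, a log2 fold change of 0.26 (SE 0.02). MT-CO3, the third core subunit, was 5683 and 5674 CPM in the KO libraries and 4825 and 4743 CPM in the control libraries, a log2 fold change of 0.25 (SE 0.02). Relative to the pool they were 0.09 and 0.08 higher, and without factors they were -0.02 and -0.03, neither past the threshold. MT-CYB, which encodes cytochrome b of complex III, was 7544 and 7409 CPM in the KO libraries and 6653 and 6740 CPM in the control libraries, a log2 fold change of 0.16 (SE 0.02). It did not pass relative to the pool (-0.01, SE 0.02, adjusted p = 0.581). Nor did it pass with upper-quartile factors (0.03, adjusted p = 0.250), and without factors it was lower (-0.12).

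**Figure D3:**
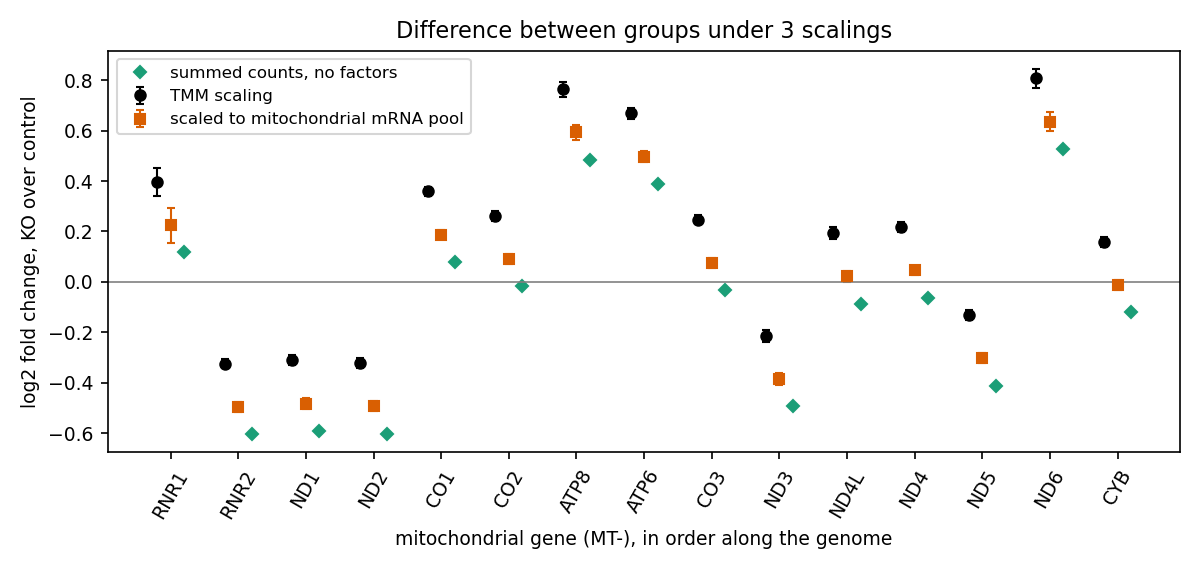
Each mitochondrial gene, in order along the genome, has 3 log2 fold changes of KO over control on the vertical axis, with TMM factors (black), relative to the mitochondrial mRNA pool (orange) and with summed counts alone (green, no bars). Bars are ± SE. The scaling moves all genes together, while MT-ND6, MT-ATP8 and MT-ATP6 stay at the top and MT-RNR2, MT-ND1 and MT-ND2 at the bottom.

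Along the genome, the values relative to the pool changed sign several times. MT-RNR1 lay at 0.23. MT-RNR2, MT-ND1 and MT-ND2, which follow each other with tRNAs between them, lay at -0.50, -0.48 and -0.49 relative to the pool. MT-CO1 and MT-CO2 lay at 0.19 and 0.09, the overlapping MT-ATP8 and MT-ATP6 at 0.59 and 0.50, and MT-CO3 at 0.08. MT-ND3 was at -0.39, between MT-CO3 and the MT-ND4L and MT-ND4 pair at 0.02 and 0.05. MT-ND5 followed at -0.30, then MT-ND6 on the other strand at 0.64 and MT-CYB at -0.01. The plus-strand mRNAs come from a shared precursor, and what makes these values differ from gene to gene was not tested.

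The 2 rRNAs moved apart. MT-RNR2 (1671 to 3229), the 16S rRNA of the large mitochondrial ribosome subunit, had 4814 and 4762 CPM in the KO libraries, against 6032 and 5952 CPM in the control libraries, a log2 fold change of -0.32 (SE 0.02, adjusted p = 8.12e-15). MT-RNR1 (648 to 1601), the 12S rRNA of the small subunit, had 1238 and 1150 CPM in the KO libraries, against 871 and 941 CPM in the control libraries, a log2 fold change of 0.40 (SE 0.06, adjusted p = 0.00227). The groups did not overlap for either gene. MT-RNR1 was the least steady of the 15 between replicates, and it no longer passed without control replicate 1 (log2 fold change 0.34, adjusted p = 0.0739) or without control replicate 2 (0.44, adjusted p = 0.0715). Nor did it pass relative to the pool (0.23, SE 0.07, adjusted p = 0.0571) or without factors (0.12, adjusted p = 0.142). MT-RNR1 counts were 25.7% and 24.1% of MT-RNR2 counts in the KO libraries, against 14.4% and 15.8% in the control libraries, a log2 difference of 0.72. The rRNAs carry at most a few terminal A residues, so their counts in a poly(A)-selected library are not a measure of their amount in the cell.

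The tRNA rows gave no values. All 22 had 0 counts in each library, so the limit is 3 counts for all 22 together, which is 0.0776 and 0.0735 CPM without factors in the KO libraries and 0.171 and 0.149 CPM in the control libraries. The tRNA genes are 59 to 75 bases long and are scattered between the longer genes, 8 of them on the minus strand. A poly(A) library leaves out most mature tRNA, but the precursors cross these genes, and each mRNA had between 1994 and 784363 counts in a library. Why these rows are at exactly 0 was not tested, and no tRNA level can be read from them.

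Several of these mRNAs end without a whole stop codon in the DNA, and the poly(A) tail supplies the missing bases. The annotated 3′ ends of 4 protein-coding genes are shown to make this visible. Each is the last 20 bases of the gene, with the last codon, or what there is of it, in capitals. Where the mRNA itself ends was not tested.
MT-ND1: agcattccccctcaaaccTA
MT-ND2: ttttatactaataatcttaT
MT-ATP6: acctgcacgacaacacaTAA
MT-ND6: agattgctcgggggaatAGG
By length, 6 of the 13 mRNAs (MT-ND1, MT-ND2, MT-CO3, MT-ND3, MT-ND4 and MT-CYB) had 1 or 2 bases left over after the last whole codon. Of these 6, 3 were higher and 3 lower in the KO libraries, with a median log2 fold change of -0.03. Of the other 7, 6 were higher and 1 lower, with a median of 0.36. Without factors, 0 of the 6 were higher and 5 lower (median -0.31), and 4 of the 7 were higher and 2 lower (median 0.08). Over all tested genes 36.4% were higher with TMM factors and 25.2% without. MT-ATP6 is among the 7 by length, but its last base, 9207, is also the first base of MT-CO3. Whether its mRNA keeps a whole stop codon was not tested. This grouping by length was made after the values were seen and is a description only.

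Copies of the mitochondrial genome inserted in the nuclear DNA share reads with the members. The table holds 407 rows named as such pseudogenes or as MTRNR2L genes, and 91 of them had at least 1 count. A block of 7 such pseudogenes lies on chromosome 1 from 629062 to 634922 (plus strand, GRCh38), in the order of the mitochondrial genes, and each is 97.6% to 99.2% identical to its mitochondrial gene over the aligned bases. MTCO1P12, the copy of MT-CO1, had 154 counts in each KO library, against 24830 and 27216 counts in the control libraries, a log2 fold change of -8.20 (SE 0.05, adjusted p = 2.16e-38). As a share of the counts of MTCO1P12 and MT-CO1 together this was 0.0209% and 0.0196% in the KO libraries, against 7.23% and 6.96% in the control libraries. The other copies of the block showed no such gap. MTATP6P1, the copy of MT-ATP6, held 9.21% and 9.37% of its pair in the KO libraries and 9.82% and 9.80% in the control libraries. MTND2P28 held 0.397% and 0.463% in the KO libraries and 0.324% and 0.349% in the control libraries. MTCO2P12, the next gene after MTCO1P12, had 1 and 2 counts in the KO libraries and 1 in each control library, and MTATP8P1 had none.

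**Figure D4:**
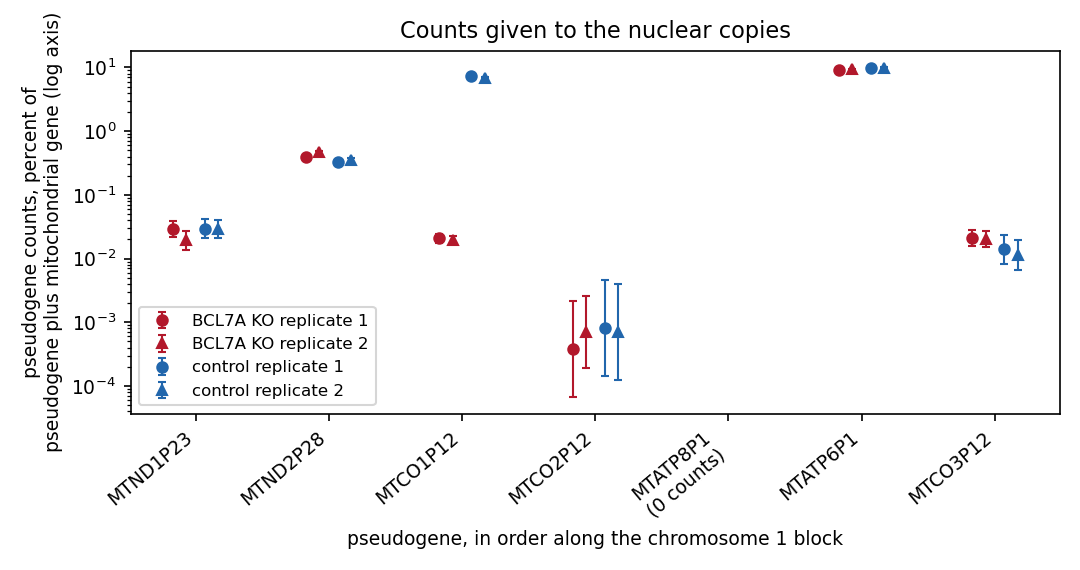
For each pseudogene of the chromosome 1 block, points give its counts as a percent of the summed counts of the pseudogene and its mitochondrial gene (log axis) in each library, KO in red and control in blue, with Wilson 95% intervals. The KO and control points of MTCO1P12 are far apart, at about 0.02% and 7%, while those of the other copies lie close together or have no counts.

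Reads of such a pair are told apart only where the sequences differ. MTCO1P12 and MT-CO1 have 20 substitutions over 1542 aligned bases, and 62.2% of the 31-base windows of MTCO1P12 also occur in MT-CO1. MT-ATP6 and MTATP6P1, whose shares were alike in the groups, are shown over a 120-base stretch with the most differences. The stretches are chrM:8599-8718 for MT-ATP6 and chr1:633768-633887 for MTATP6P1, both on the plus strand of GRCh38 (GENCODE 29 transcript sequences), with differing bases in capitals.
MT-ATP6: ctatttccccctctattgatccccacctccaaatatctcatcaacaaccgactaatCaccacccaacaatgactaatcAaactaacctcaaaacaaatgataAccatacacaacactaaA
MTATP6P1: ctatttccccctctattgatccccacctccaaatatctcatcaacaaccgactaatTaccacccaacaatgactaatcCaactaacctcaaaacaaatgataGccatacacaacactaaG
Counted from 1 at the 5′ end of MT-ATP6, with the base of MT-ATP6 first, the differences in this stretch are C129T, A151C, A175G and A192G. This pair has 10 substitutions over 681 bases, and 61.3% of the 31-base windows of MTATP6P1 also occur in MT-ATP6. The share of windows in common is thus nearly the same for both pairs. Which genome the MTCO1P12 reads came from, and whether the mitochondrial sequence of KO and control cells is the same, was not tested.

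Adding the counts of each pseudogene to its mitochondrial gene changed MT-CO1 most. Its log2 fold change was then 0.25 (adjusted p = 2.39e-13), close to those of MT-CO2 and MT-CO3. MT-ATP6 was at 0.66 with the added counts, against 0.67, and no other member moved by more than that. The summed mRNA share then differed by -0.66 percentage points between the KO and control libraries, against -0.53 without the added counts. Of the 8 pseudogenes that passed the filter on low counts, 2 were higher in the KO libraries, MTATP6P1 (log2 fold change 0.58, SE 0.03) and MTCO3P12, with 42 and 43 counts in the KO and 13 and 12 in the control libraries. The call on MTCO3P12 was lost in 8 of 16 alternatives (largest adjusted p = 0.377), among them without KO replicate 1, without KO replicate 2 and without control replicate 2. The 2 lower ones were MTCO1P12 and MTCO1P30, named here after its values were seen, with 3 and 0 counts in the KO and 6 and 7 in the control libraries. MTCO1P12 kept its call in all 16 alternatives. Only 1 pseudogene was lower without any one of the 4 libraries, with DESeq2, with the stricter filter and with thinned KO counts, so the call on MTCO1P30 was lost there. The remaining 4, MTND1P23, MTND2P28, MTND4P12 and MTCO3P39, did not pass. Over all tested genes 36.4% were higher and 39.8% lower. The other copies with the most counts for their gene, such as MTND6P4 and MTND3P22, had at most 12 counts in a library.

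The nuclear genes that copy, transcribe, process and translate the mitochondrial genome were mostly higher in the KO libraries when TMM factors were used. Of 64 tested, 43 were higher and 7 lower with TMM factors (median log2 fold change 0.35), and 28 were higher and 18 lower without factors. The background shares were 36.4% and 39.8% with factors. Without factors the background shares were 25.2% and 52.2%. In transcription, 4 of 7 genes rose and 1 fell with TMM factors, and 1 was higher and 2 lower without. POLRMT, the mitochondrial RNA polymerase, averaged 96.8 ± 1.42 CPM in KO cells and 78.8 ± 0.450 CPM in control cells, a log2 fold change of 0.30 (SE 0.04, and 0.02 without factors). MTERF3, which binds the mitochondrial promoter region, rose by 0.51 (SE 0.07), and TFB2M, a factor that opens the promoter, by 0.34 (SE 0.07, and 0.06 without factors, not past the threshold). The gene that fell was MTERF1, which binds DNA just past the rRNA genes. It had 0 counts in both KO libraries and 15 and 12 in the control libraries. Replication and packaging genes rose in 6 of 10 cases and fell in 1 with TMM factors, and 4 were higher and 3 lower without. POLG, the DNA polymerase, rose by 0.52 (SE 0.04), POLG2, its accessory subunit, by 0.62 (SE 0.07) and SSBP1, the single-strand binding protein, by 0.40 (SE 0.04). MGME1, an exonuclease of mitochondrial DNA, fell by 0.60. TFAM, which packages the DNA and starts transcription and was named after its values were seen, did not pass (0.02, SE 0.05, adjusted p = 0.679).

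Of the 4 genes that cut tRNAs out of the precursor, 3 rose with TMM factors, and without factors 3 were higher and 1 lower. For this and the next 3 lists, the shares over all tested genes were 36.4% higher and 39.8% lower with TMM factors. They were 25.2% and 52.2% without factors, and 29.4% and 47.1% relative to the pool. ELAC2, which cuts at the 3′ end of tRNAs, averaged 132 ± 0.390 CPM in KO cells and 67.6 ± 3.07 CPM in control cells, a log2 fold change of 0.96 (SE 0.04). HSD17B10 and TRMT10C, subunits of the RNase P that cuts at the 5′ end, rose by 0.59 and 0.44, and its nuclease subunit KIAA0391 (PRORP) did not pass (0.11, SE 0.07, adjusted p = 0.116). Among 16 genes of polyadenylation, stability and decay, 11 rose and 2 fell with TMM factors, and 9 were higher and 5 lower without. GRSF1, an RNA granule protein that binds mitochondrial RNA, had the largest value, with 421 ± 3.45 CPM in KO cells and 157 ± 0.284 CPM in control cells, a log2 fold change of 1.43 (SE 0.03). By smallest p, the polynucleotide phosphorylase PNPT1 (0.97, SE 0.04), FASTKD1 (1.28, SE 0.05) and PDE12, which removes poly(A) tails (0.78, SE 0.04), followed. The 2 that fell, named after their values were seen, were the RNA helicase SUPV3L1 (-0.59, SE 0.06) and TBRG4 (-0.15, SE 0.04). In tRNA and rRNA modification 10 of 15 rose and 0 fell with TMM factors, while 6 were higher and 4 lower without factors and 10 higher and 3 lower relative to the pool. The 4 with the smallest p were CDK5RAP1 (1.05, SE 0.05), TRMU (0.66, SE 0.06), NSUN4 (0.69, SE 0.07) and MTO1 (0.42, SE 0.05). Of 12 translation factors 9 rose and 3 fell with TMM factors, and 5 were higher and 3 lower without. TUFM, the elongation factor that brings tRNAs to the ribosome, rose by 0.72 (SE 0.03), GFM2, a ribosome recycling factor, by 1.06 (SE 0.05) and the initiation factor MTIF2 by 0.76 (SE 0.05). C12orf65 (MTRFR), a factor that rescues stalled ribosomes, fell by 0.70. The other 2 that fell, named after their values were seen, were MTRF1 (-0.58, SE 0.18) and GFM1 (-0.12, SE 0.04).

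For complexes I, III and IV the nuclear subunit genes had a higher median log2 fold change than the mitochondrial ones, and for ATP synthase the medians were close. For complex I, 34 of 37 nuclear genes rose and 1 fell with TMM factors, with a median of 0.47, against a median of -0.13 over the 7 mitochondrial genes. Without factors 23 of the 37 were higher and 7 lower (median 0.19), where 25.2% and 52.2% of all tested genes were, against 36.4% and 39.8% with factors. NDUFS5, NDUFA11 and NDUFA2 were among those with the smallest p, with values from 0.96 to 1.33. The one that fell, NDUFA9 (-0.59, SE 0.05), was named after its values were seen. For complex III, 8 of 9 nuclear genes rose (median 0.78) and CYC1, chosen after its values were seen, fell by 0.12, while MT-CYB was at 0.16. UQCRQ rose most of the 4 with the smallest p (1.28, SE 0.04), followed by UQCR11 (0.91), UQCRC2 (0.76) and UQCRB (0.72). For complex IV, all 11 nuclear genes rose (median 0.87), against 0.26 over MT-CO1, MT-CO2 and MT-CO3. COX7C and COX6C were at 1.06 and 1.05, COX4I1 at 0.89 and COX5A at 0.73. For ATP synthase, all 17 nuclear genes rose with TMM factors (13 without, and 0 fell; median 0.68), against 0.72 over MT-ATP6 and MT-ATP8. Its catalytic subunits ATP5F1A and ATP5F1B were at 1.05 and 0.78, ATP5F1C at 1.25 and ATP5PB at 1.05. These are descriptions of medians, and the difference between nuclear and mitochondrial subunits was not tested.

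**Figure D5:**
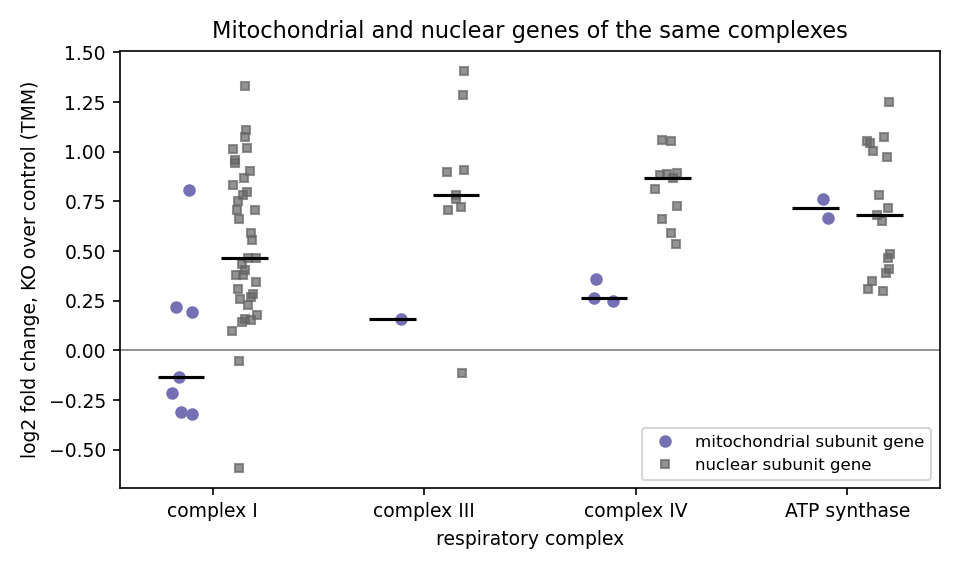
Each point is the log2 fold change of KO over control (TMM factors) of 1 subunit gene, mitochondrial genes as circles and nuclear genes as squares, with black lines at the medians. The medians are -0.13 and 0.47 for complex I, 0.16 and 0.78 for complex III, 0.26 and 0.87 for complex IV and 0.72 and 0.68 for ATP synthase, mitochondrial value first.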

How the data were processed

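Per the submitters' processing notes, the authors used Salmon 0.12 and GRCh38, and what they deposited is 1 table of estimated counts for the genes of all 4 libraries. All its values are whole, so no rounding was needed. The sources used here do not give the annotation, index, strand setting or read length. All 56809 gene names occur in GENCODE release 29, which supplied coordinates, lengths and sequences. The 92 ERCC spike-in rows (no more than 5 counts in any library) were dropped.

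Genes were kept with filterByExpr (17885 tested), scaled with TMM factors and compared with edgeR 4.0.16 (glmQLFTest after a robust glmQLFit, group as the only term). Benjamini-Hochberg adjustment ran over all tested genes, with a threshold of 0.05. Log2 fold changes are KO over control, and an SE is the absolute log2 fold change over the square root of F. A gene that rose passed the threshold with KO above control, and one that fell with KO below it. Shares of single libraries have Wilson 95% intervals, which cover counting error only. The biological coefficient of variation was 2.32%. Pairs of sequences were aligned with Biopython 1.88.

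The members, the 15 nuclear and marker lists (164 entries, all matched, 2 by an alternative symbol with the same Ensembl ID) and the tests were chosen with earlier results of these data known. All members may be named, with BCL7A, up to 4 genes of each list by smallest p, the 6 pseudogenes with the highest mean CPM and the one with the most counts for each mitochondrial gene. Alternatives were RLE and upper-quartile factors, factors from rows outside the mitochondrial genome, scaling to the mitochondrial mRNA pool, no and stricter filters, DESeq2 1.42.0, limma-voom (limma 3.58.1), a replicate block, each library left out, no robust shrinkage, a threshold of 0.01, thinned KO counts and added pseudogene counts. A fit without factors was added after the data were seen. Only the main fit was run on simulated counts, and none of the alternatives was. Few genes were changed in that simulation, so it does not cover data in which most tested genes pass. Some genes and sequences that these rules would name are not reported here.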

Additional observations from a re-analysis of the deposited data

How the results depend on the processing

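Upper-quartile factors moved the log2 fold change of tested genes by a median of -0.13 against TMM, no factors by -0.28 and scaling to the mitochondrial mRNA pool by -0.17. Counts of mitochondrial genes differed by more than 1.5 times from the reported 10 higher and 5 lower without factors (4 and 8). Without factors 28 nuclear genes of mitochondrial gene expression were higher and 18 lower, and with upper-quartile factors 12 were lower. Without factors, MT-CO2 (-0.0174), MT-CO3 (-0.0321), MT-ND4L (-0.0862), MT-ND4 (-0.0621), MT-CYB (-0.12), KIAA0391 (-0.16) and MTND2P28 (-0.25) changed sign. MT-CYB did so relative to the pool (-0.0128), and KIAA0391 (-0.0186) and MTND2P28 (-0.10) with upper-quartile factors. So did MTND2P28 with the stricter filter (-0.0248) and MTCO3P39 with no filter (0.0591). With libraries left out in turn these ranged from -0.0734 to 0.15 (MTND2P28) and from -0.20 to 0.17 (MTCO3P39). The 2 higher pseudogenes became 1 with upper-quartile factors, no factors, DESeq2, a threshold of 0.01 and thinned KO counts, and 1 to 2 with libraries left out. The 2 lower became 4 without factors and with no filter, and 1 with the stricter filter, DESeq2, thinned KO counts and each library left out. Adding pseudogene counts moved the mRNA share difference to -0.66 percentage points. The cause of these changes was not tested.

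Replicate numbers name the libraries but are not known to pair them. Same-numbered deviations correlated at -0.01 over 16740 genes, and the replicate block gave 10 higher and 5 lower mitochondrial genes, the same counts as without it. MT-RNR2, MT-ND1, MT-ND2, MT-ND3, MT-ATP8, MT-ATP6, MT-CO1 and MT-ND6 kept direction and call in all 18 alternatives each. No level can be read from the tRNA rows, and 91 of the 407 pseudogene and MTRNR2L rows had at least 1 count.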

Other observations

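Across the 13 mitochondrial mRNAs, the log2 fold change of KO over control had Spearman rho = -0.23 with GC content, -0.35 with gene length and 0.15 with order along the genome. These are descriptions across genes that share the same 4 libraries and largely the same precursor.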
